A study of Rattus norvegicus with 23 samples.

Results

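The step described is the change in transcript levels of rat hippocampal neural stem cells between 12 and 24 h on a stiff substrate. It was read from 6 of the 23 libraries of the series, chosen by their titles alone: 3 taken at 24 h on stiff and 3 taken at 12 h on stiff. All 23 libraries came from wild-type cells of the hippocampus of adult female rats, kept in a medium for mixed differentiation: DMEM-F12 and N2 supplement to which retinoic acid (1 uM) and FBS (1%) had been added. The other groups used were stiff at 0 h and at 36 h (3 libraries each), soft at 24 h (3) and soft at 12 h (2). The sources used here give neither the stiffness in units of pressure nor the material, the cells' passage or their treatment before 0 h. The titles number the libraries, and the same numbers recur across groups, but the titles do not say what the number marks. Soft at 12 h has numbers 1 and 3 only. Nothing says that the libraries were grown as separate cultures. The p-values set the difference between group means against the spread between libraries, estimated over all 23, and that spread may be technical.

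Neural stem cells of the adult hippocampus divide to renew themselves and can give rise to neurons and to glia. Retinoic acid, a derivative of vitamin A, binds nuclear receptors that act directly on transcription, and serum adds growth factors and adhesion proteins. Cells sense the stiffness of what they sit on through matrix adhesions and the contractile cytoskeleton. The series asked which genes of these cells depend on stiffness. The step on stiff addresses what changes with time on that substrate in the middle of the sampled course.

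QuantSeq FWD libraries, which sample each polyadenylated transcript by a tag close to its 3′ end, gave whole-number counts per gene. Totals were 5255181 to 6566822 counts in the 24 h stiff libraries and 2462360 to 4803755 in the 12 h stiff libraries, so depth did not overlap between the times compared. Genes with at least 1 count numbered 14116 to 14547 at 24 h and 13094 to 13975 at 12 h. After thinning each library to 2462360 counts they numbered 13283 to 13472 at 24 h and 13094 to 13301 at 12 h, ranges that met only at their ends. The table identifies genes by Ensembl rat identifiers without names, and 0 of 32883 matched the reference table used here. Marker genes of stem cells, neurons and glia could therefore not be looked up, and the labelled cell type was not checked. In these bulk samples fewer cells of a type and less RNA per cell cannot be told apart, and levels are relative to the library's total.

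Between 12 and 24 h on stiff, 3630 genes changed, 30.6% of the 11857 tested. Of these, 1717 rose (14.5% of those tested) and 1913 fell (16.1%). The test was edgeR's quasi-likelihood F test, and a gene counts as called where its p, adjusted by Benjamini-Hochberg over all tested genes, is under 0.05. The 2 directions were close in number, and which was the larger depended on scaling: upper-quartile factors gave 1990 risen genes and 1661 fallen ones. The median log2 fold change over all tested genes was 0.005. The risen genes had a median log2 fold change of 0.63 (1.55-fold), with 80% of them between 0.33 and 1.39, and the fallen genes a median of -0.59, with 80% between -1.30 and -0.32. In 6 of the risen genes all 3 libraries at 12 h held 0 counts, and setting these at the bound given by a floor of 3 counts over the group left the median at 0.63. These bounds, 3.83- to 7.9-fold, all lay above the median, so it could not move and was not put to a test.

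The ranges of the groups were largely separate among the called genes. All 3 libraries at 24 h lay above all 3 at 12 h in 2575 tested genes (21.7%) and below them in 2619 (22.1%), called or not. Of the risen genes 1648 (96%) had separate ranges, and of the fallen genes 1837 (96%). The median SD of the log2 level between libraries was 0.158 at 24 h and 0.18 at 12 h.

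**Figure D1:**
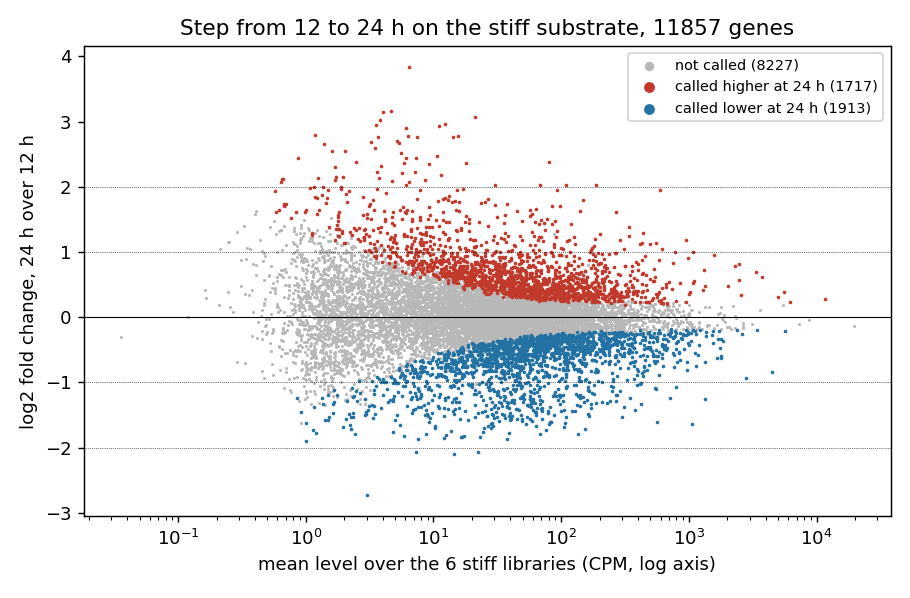
Log2 fold change at 24 h over 12 h on stiff against the mean level over the 6 libraries (CPM, log axis), with 1 point for each of 11857 tested genes; the 1717 genes called higher are red, the 1913 called lower blue, the others grey. Rises above the upper dotted line, at a log2 fold change of 2, are mostly of genes at low level, and only 4 falls lie below the lowest dotted line.

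Most changes were moderate. Among the risen genes 762 (44.4%) changed by less than 1.5-fold, 594 (34.6%) by 1.5- to 2-fold, 305 (17.8%) by 2- to 4-fold and 56 (3.26%) by more than 4-fold. Among the fallen genes the same classes held 955 (49.9%), 573 (30%), 381 (19.9%) and 4 (0.209%). More than 2-fold changes were made by 746 genes (6.29%), about equally in both directions, at 361 risen genes (3.04% of those tested) and 385 fallen ones (3.25%), whereas over 4-fold they were not, at 56 (0.472%) and 4 (0.0337%). The 56 genes were scarce before the step, with a median of 9.46 CPM at 24 h and 1.16 CPM at 12 h. Of them, 5 had 0 counts in all 3 libraries at 12 h, and for those the fitted fold depends on the model's prior count. The count over 4-fold also moved with the method: DESeq2 gave 86 risen and 15 fallen, and thinning to equal depth gave 32 and 2. The fallen count was 12 without stiff 24 h replicate 2, 11 without stiff 24 h replicate 3 and 2 without stiff 12 h replicate 2.

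Genes with small changes were the more abundant ones. Risen genes that changed by less than 1.5-fold had a median level of 90.7 CPM at 24 h and 68.5 CPM at 12 h, and those that rose 2- to 4-fold 13.1 and 5.13 CPM. Fallen genes under 1.5-fold had medians of 79.7 CPM at 24 h and 106 CPM at 12 h, and those that fell 2- to 4-fold 17.6 and 44.1 CPM. Small changes can be called only where counts are high, and the median standard error of the log2 fold change was 0.0986 in the most abundant of 4 equal classes and 0.421 in the least abundant.

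Risen genes outnumbered fallen ones among scarce genes, and fallen ones outnumbered risen ones among abundant genes except under some scalings. In the least abundant class, at 0.37 to 7.74 CPM over all 23 libraries, 196 genes rose (6.61%) and 127 fell (4.28%). In the most abundant class, at 72.2 CPM and above, 604 rose (20.4%) and 833 fell (28.1%). Between them lay classes with 423 risen and 334 fallen genes (7.76 to 26.8 CPM) and with 494 and 619 (26.8 to 72.1 CPM). With upper-quartile factors the most abundant class held 715 risen and 721 fallen genes and the class at 26.8 to 72.1 CPM 573 and 548, so among abundant genes the balance depends on the scaling. The excess of risen genes in the 2 less abundant classes was found with all 4 scalings and after thinning. Genes that rose more than 2-fold numbered 154 in the least abundant class and 50 in the most abundant, and those that fell more than 2-fold 87 and 86. With all libraries thinned to the same depth, 131 genes rose and 76 fell in the least abundant class, and 368 rose and 258 fell in the next.

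**Figure D2:**
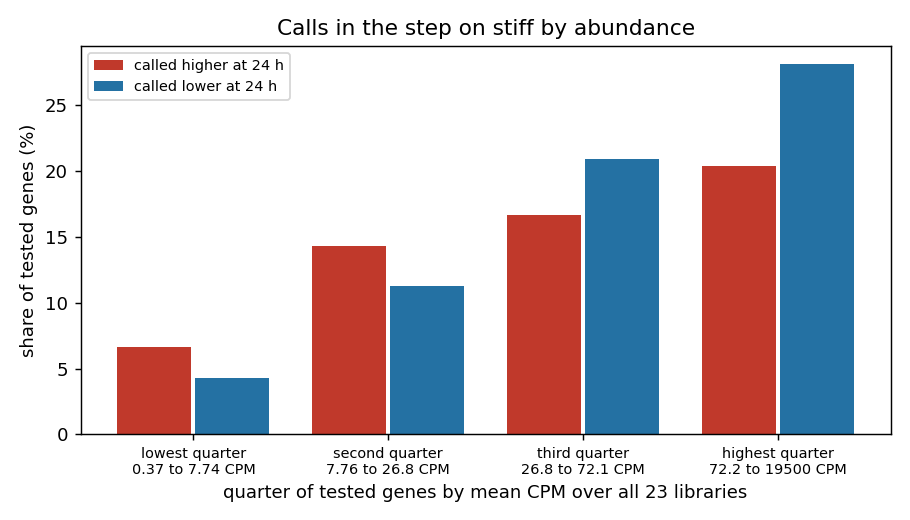
Share of tested genes (%) called higher (red) or lower (blue) at 24 h than at 12 h on stiff, in 4 classes of equal size by mean CPM over all 23 libraries. Risen genes outnumber fallen ones in the 2 less abundant classes and fallen genes outnumber risen ones in the 2 more abundant classes, which with upper-quartile factors hold 573 risen and 548 fallen genes and 715 risen and 721 fallen genes.

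The step moved a sizeable share of all transcripts. The fallen genes made up 22.5, 23.6 and 22.8% of all counts in the 24 h libraries and 32.6, 32.5 and 31.2% in the 12 h libraries. The risen genes made up 24.1, 23.7 and 24.1% at 24 h and 15.6, 15.8 and 16.7% at 12 h. Those genes were chosen on these libraries, which enlarges the gap. In libraries that had no part in the choice, the fallen genes held 18.8 to 19.9% at 36 h and 33 to 34% at 0 h, and the risen genes 27.6 to 28.6% at 36 h and 15.1 to 15.7% at 0 h. On this measure 12 h lay near 0 h, and 24 h lay nearer to 36 h, but the choice on the 12 and 24 h libraries favours both positions. Genes chosen on 0 and 36 h alone had already moved at 12 h. Their median log2 level relative to stiff 0 h averaged 0.301 in risen and -0.191 in fallen genes. At 36 h, where that choice enlarges them, the values were 0.877 and -0.808.

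A few genes were seen at 1 of the times only. With all libraries thinned to the same depth, 48 genes had counts in each 24 h stiff library and in none at 12 h, and 41 had counts in each 12 h stiff library and in none at 24 h. Their counts were low, with a median of 5 over the 3 thinned libraries in either set and a highest sum of 24 and 9. Of the 48 genes 9 passed the filter on low counts, and of the 41 genes 4 did. The choice fixed the direction of these genes, so their calls are not read as a result. Counts this low set no fold change.

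The 4 identifiers described here were chosen for the smallest p-values among genes whose libraries did not overlap between the times, so their separation follows from the choice. ENSRNOG00000018225 had 238, 223 and 229 CPM in the 24 h stiff libraries, against 60.5, 62.5 and 76.3 CPM in the 12 h stiff libraries. The 24 h libraries were the high ones. Its log2 fold change was 1.79 (SE 0.0989, edgeR, Benjamini-Hochberg adjusted p = 2.87e-14), or 3.46-fold. Its mean over the stiff 24 h libraries was 230 ± 7.35 CPM and over the 12 h libraries 66.5 ± 8.61 CPM (SD, n = 3 each). It stood at 305 ± 11.5 CPM at 36 h and 53 ± 6.79 CPM at 0 h (SD, n = 3 each), so most of its rise lay within the step. Choosing the 4 identifiers on this step favours such a course.

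ENSRNOG00000005434 rose more evenly. It had 619, 607 and 626 CPM at 24 h on stiff, against 245, 254 and 256 CPM at 12 h on stiff. The 24 h libraries were again the high ones, and the values within each time lay close together. The log2 fold change was 1.29 (SE 0.08, edgeR, Benjamini-Hochberg adjusted p = 3.68e-13), or 2.45-fold. It stood at 1010 ± 93.9 CPM at 36 h and 169 ± 8.2 CPM at 0 h (SD, n = 3 each), and the steps before and after had log2 fold changes of 0.57 and 0.70, each smaller than that from 12 to 24 h. Those steps share libraries with the middle one.

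Of the 2 fallen identifiers, ENSRNOG00000013774 had 225, 256 and 242 CPM at 24 h on stiff, against 645, 576 and 596 CPM at 12 h on stiff. Here the 24 h libraries were the low ones. The log2 fold change was -1.33 (SE 0.098, edgeR, Benjamini-Hochberg adjusted p = 1.18e-11). It was at 128 ± 17.4 CPM at 36 h and 630 ± 33.6 CPM at 0 h (SD, n = 3 each). It thus fell further after the step, with a log2 fold change of -0.91 from 24 to 36 h, while that from 0 to 12 h, -0.055, did not pass the test (edgeR, Benjamini-Hochberg adjusted p = 0.746).

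ENSRNOG00000010620 had 99.3, 113 and 108 CPM at 24 h on stiff, against 289, 263 and 249 CPM at 12 h on stiff. The 24 h libraries were again low. The log2 fold change was -1.32 (SE 0.0976, edgeR, Benjamini-Hochberg adjusted p = 1.18e-11). It was at 85.4 ± 9.21 CPM at 36 h and 256 ± 20.6 CPM at 0 h (SD, n = 3 each), and its log2 fold changes in the steps before and after were 0.06 and -0.32. On soft the same 4 identifiers moved the same way, with log2 fold changes of 2.04, 1.19, -1.52 and -1.53 in the order given. The difference between substrates did not pass the test in any of the 4, with adjusted p-values of 0.408 to 0.705 (edgeR, Benjamini-Hochberg).

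**Figure D3:**
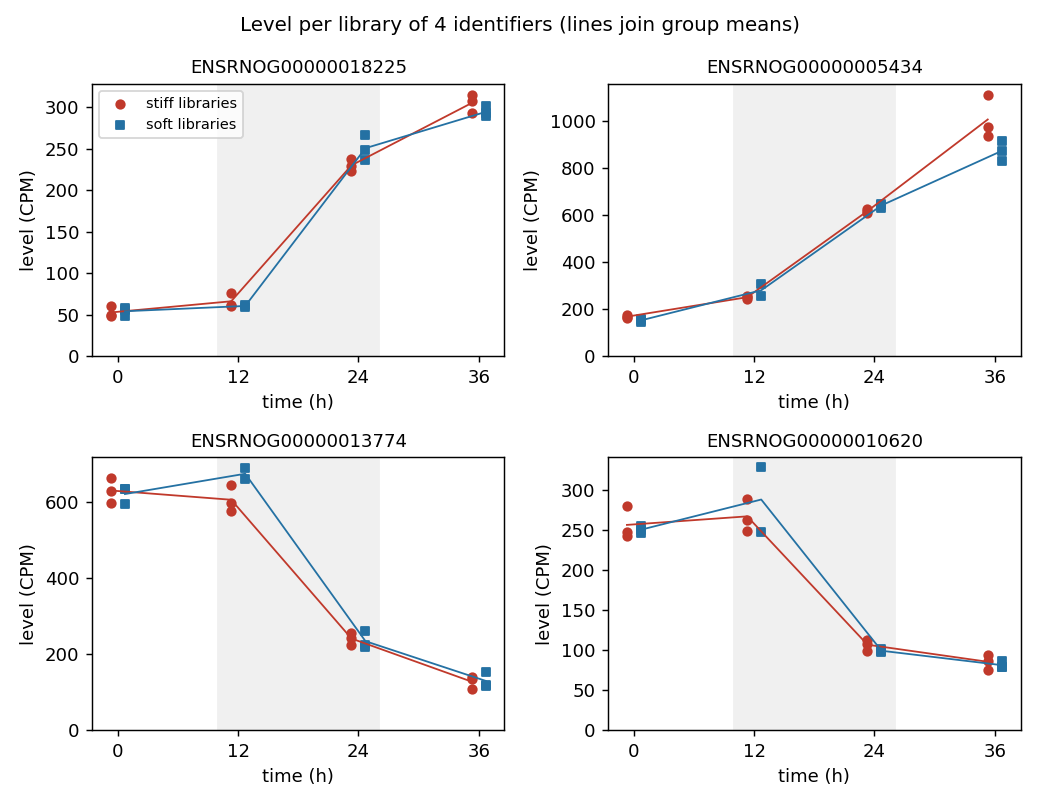
Level (CPM) of the 4 identifiers in each library at 0, 12, 24 and 36 h on stiff (red circles) and soft (blue squares), with lines through the group means and the interval from 12 to 24 h shaded. ENSRNOG00000018225 averages 230 CPM at 24 h and 66.5 CPM at 12 h on stiff, and the soft libraries follow nearly the same course.

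The genes of the step were largely those that differed between the ends of the course, which was measured in other libraries. From 0 to 36 h on stiff, 6819 genes changed (57.5%): 3466 rose (29.2% of those tested) and 3353 fell (28.3%). Of the 1717 genes that rose from 12 to 24 h, 1522 (88.6%) were called higher at 36 h than at 0 h and 21 (1.22%) lower. Of the 1913 that fell, 1717 (89.8%) were called lower at 36 h than at 0 h and 17 (0.889%) higher. Taken the other way, 43.9% of the genes that rose over the course and 51.2% of those that fell were also called in the step. Across the 11857 genes (genes being no independent replicates) the fold changes of step and course, on the log2 scale, had a Pearson's r of 0.747 and a Spearman's rho of 0.739.

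Genes chosen on 0 and 36 h alone show where on the course the step lies. In the 3466 risen genes, the median log2 level relative to stiff 0 h was 0.29, 0.27 and 0.35 in the libraries at 12 h, and 0.72, 0.64 and 0.68 in those at 24 h. At 36 h, where the choice enlarges it, the mean was 0.88. In the 3353 fallen genes the medians were -0.17, -0.17 and -0.23 at 12 h and -0.65, -0.59 and -0.62 at 24 h, with a mean of -0.81 at 36 h. The libraries of 12 and 24 h did not overlap in either set. For both sets the level changed more between 12 and 24 h than in either neighbouring interval of the same length.

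**Figure D4:**
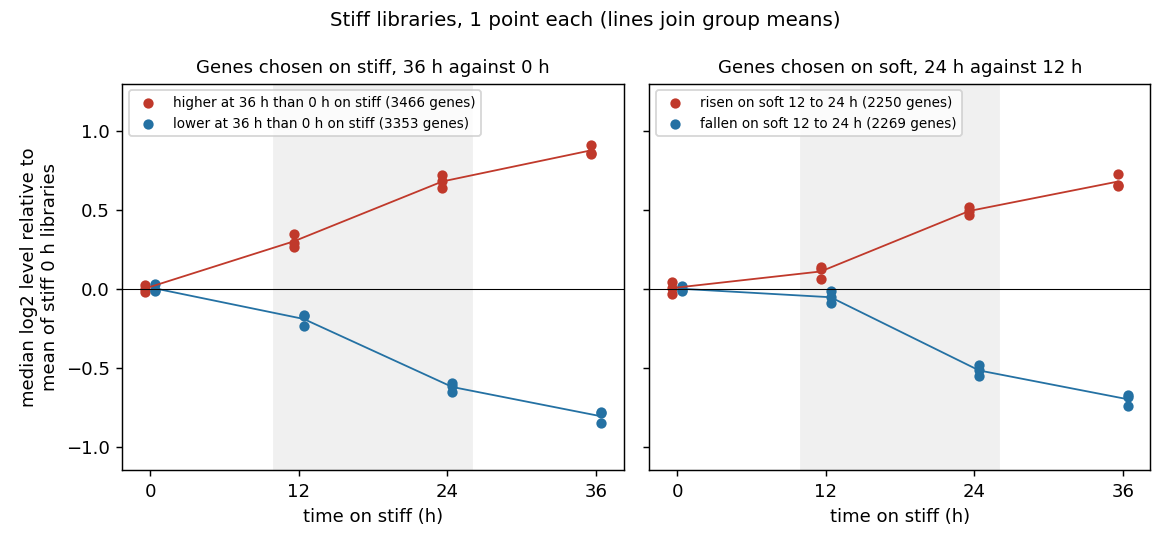
Median log2 level relative to the mean of the stiff 0 h libraries, 1 point for each of the 12 stiff libraries, for genes chosen on stiff at 0 and 36 h (left) and genes chosen on soft at 12 and 24 h (right); lines join group means. In all 4 sets the 24 h libraries lie farther from 0 than all 12 h libraries.

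By numbers of calls the middle step was also the broadest of the 3 on stiff. From 0 to 12 h 2551 genes were called (21.5%), 1395 of them higher (11.8%) and 1156 lower (9.75%). From 12 to 24 h they numbered 3630 (30.6%). From 24 to 36 h they numbered 1173 (9.89%), 546 higher (4.6%) and 627 lower (5.29%). The median standard error of the log2 fold change was 0.167, 0.167 and 0.162 in the 3 steps. The last count was 600 without stiff 24 h replicate 2. The genes that rose from 12 to 24 h had median log2 fold changes of 0.12, 0.63 and 0.20 in the 3 steps, and those that fell -0.07, -0.59 and -0.19. These genes were chosen on the middle step, so that its medians are the largest follows largely from the choice. The steps share libraries at 12 and 24 h, so these medians are set side by side without a test.

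A minority of the step's genes did not follow the course. In 174 risen genes the levels at 36 and 0 h did not differ by the test. Relative to stiff 0 h, their median log2 level at 12, 24 and 36 h was -0.44, 0.18 and 0.16 on stiff. In the soft libraries, which had no part in the choice, it was -0.18, 0.10 and 0.25 at these times. In 179 fallen genes it was 0.30, -0.17 and -0.15 on stiff, and 0.24, -0.10 and -0.15 on soft. The choice on the stiff 12 h libraries enlarges these dips and peaks, and the soft values were smaller at 12 h.

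The genes called against their course stood far from their 0 h level at 12 h and nearer to it at 24 h. On stiff this follows largely from the choice, which was made on these libraries. The soft libraries had no part in the choice, though their levels are given relative to stiff 0 h. The 21 genes that rose in the step but ended lower had, at the same 3 times, median log2 levels of -1.18, -0.79 and -0.88 on stiff, and -1.01, -0.88 and -0.86 on soft. The 17 genes that fell in the step but ended higher had medians of 1.36, 0.93 and 0.79 on stiff, and 1.48, 0.80 and 0.65 on soft. In both sets soft and stiff lay on the same side of the 0 h level at every later time.

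The step on soft was measured in separate libraries (3 at 24 h and 2 at 12 h). There 4519 genes changed (38.1%), 2250 rising (19%) and 2269 falling (19.1%), and 1160 (9.78%) did so by more than 2-fold. Of the genes that rose on stiff, 1094 (63.7%) also rose on soft and 1 (0.0582%) fell. Of those that fell on stiff, 1358 (71%) also fell on soft and 71 (3.71%) rose. These shared genes make up 48.6% of those that rose on soft and 59.9% of those that fell there. The log2 fold changes of the substrates correlated across genes with a Pearson's r of 0.657 and a Spearman's rho of 0.627.

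The size of the change was read on both substrates. The genes risen on stiff had a median log2 fold change of 0.63 on stiff and 0.56 on soft, and 94.6% had a positive sign on soft, against 50.5% of all tested genes. The fallen genes had medians of -0.59 on stiff and -0.56 on soft, and 9.93% were positive on soft. Chosen on soft instead, risen genes had a median of 0.39 on stiff and fallen genes one of -0.42. For the soft-chosen genes the median level in the single stiff libraries, relative to 0 h, was 0.47 to 0.52 at 24 h and 0.06 to 0.14 at 12 h for risen genes, and -0.55 to -0.48 at 24 h and -0.09 to -0.02 at 12 h for fallen genes.

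The shares also called on soft were set out by size of change. Of the genes that rose by less than 1.5-fold on stiff 56.8% also rose on soft, of those that rose 2- to 4-fold 70.5%, and of the 56 over 4-fold 91.1%. For fallen genes the shares were 65% under 1.5-fold and 81.1% at 2- to 4-fold. Differences between these shares were not tested. Small changes pass the test less readily on either substrate.

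The difference between the steps was tested directly, gene by gene. The step on stiff differed from that on soft in 526 genes (4.44%), and in 457 of them (3.85%) stiff minus soft was negative. In the other 69 (0.582%) it was positive. The 457 genes had a median log2 fold change of -0.17 on stiff and 0.81 on soft. On stiff 276 of them were not called, 141 fell and 40 rose, while on soft 384 rose. Relative to stiff 0 h, their median log2 level was -0.17 at 24 h and 0.03 at 12 h on stiff, and -0.04 at 24 h and -0.80 at 12 h on soft. The largest of these departures from 0 h was that of soft at 12 h, a group of 2 libraries. The choice enlarges it, because a low level in those 2 libraries makes the difference negative. The test gave 279 genes without soft 12 h replicate 3, a fit in which the lone soft library at 12 h takes its spread from the other groups.

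The 69 genes with a positive difference had median log2 fold changes of 0.14 on stiff and -0.57 on soft, and 53 of them fell on soft. Their number was the less stable one. It was 17 without stiff 12 h replicate 2, 43 without stiff 12 h replicate 1 and 45 without stiff 12 h replicate 3. It was 24 and 38 without stiff 24 h replicates 2 and 3, 28 without soft 24 h replicate 2, 110 without soft 24 h replicate 3 and 31 without soft 12 h replicate 3.

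**Figure D5:**
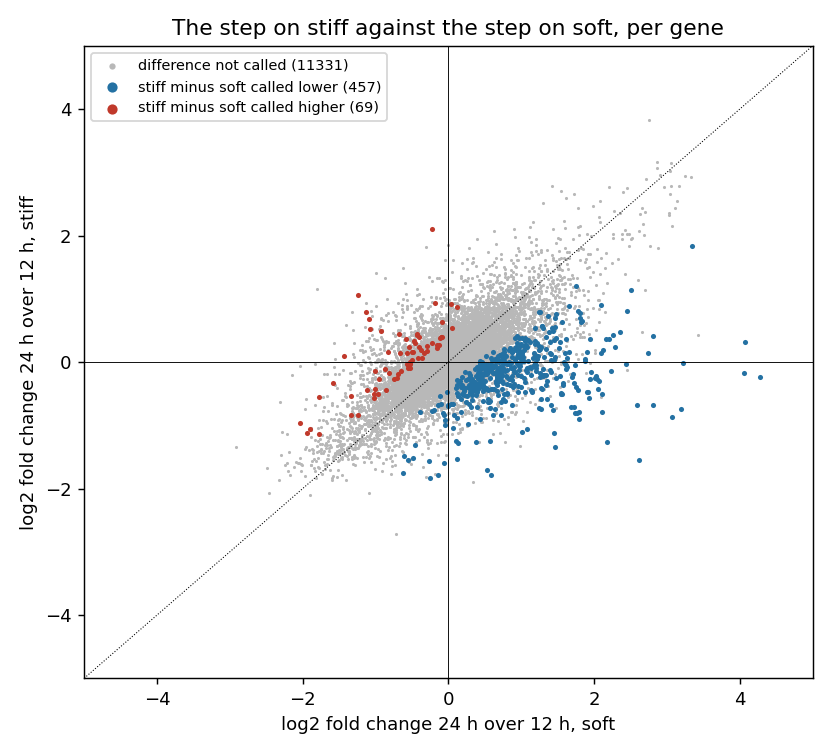
Log2 fold change at 24 h over 12 h on stiff (vertical) against soft (horizontal) for 11857 genes, with equal values on the dotted diagonal. The 457 genes whose step was lower on stiff (blue) lie below the diagonal, most of them risen on soft and near 0 on stiff, and the 69 whose step was higher (red) lie above it.

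Calls made on stiff and not on soft were set against the test of the difference. Of the 623 genes that rose on stiff and were not called higher on soft, 14 (2.25%) differed between the steps by the test. Of the 555 that fell on stiff and were not called lower on soft, 135 (24.3%) differed. These 555 include 71 genes called higher on soft, all of which differed, largely by the choice. Among the 484 fallen genes not called on soft in either direction, 64 (13.2%) differed. Among the 622 risen genes not called on soft, 13 (2.09%) did. The share over all tested genes was 4.44%. These counts use the same libraries for both criteria, so they describe the calls and are not independent of them.

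The 71 genes that fell on stiff and rose on soft all differed between the steps. This follows largely from the choice, because the difference is taken between those same 2 fold changes. Their median log2 fold change was -0.46 on stiff and 0.59 on soft. Relative to stiff 0 h their median log2 level at 12, 24 and 36 h was 0.004, -0.46 and -0.54 on stiff, and -0.98, -0.31 and -0.40 on soft. On both substrates they were below the 0 h level by 24 h, on soft after a lower point at 12 h, which the choice enlarges. The number was 41 without stiff 12 h replicate 2 and 39 without soft 12 h replicate 3.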

How the data were processed

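The authors deposited raw, whole-number counts per gene, 1 column per library. Per the submitters' processing notes, HISAT2 2.1.0, HTSeq, FastQC and the build rn6 were used. For the annotation release, strand setting and duplicates: not given in the sources used here. Overlapping genes and near-identical copies may share reads.

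Counts were analysed with edgeR 4.0.16 (R 4.3.3): filterByExpr (minimum count 10, minimum total 15), TMM factors, 1 fit of 8 group means to all 23 libraries, quasi-likelihood F tests and Benjamini-Hochberg adjustment over 11857 genes, with a threshold of 0.05. CPM use TMM-scaled totals, and log2 levels a prior count of 2. Standard errors are those implied by the F statistic. The scripts were tested on simulated data. Figures were drawn with matplotlib 3.10.9.

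Members, lists and tests were chosen with earlier results of these data known. With no names, the 35 gene lists and the markers could not be used, and the rule for named genes allowed 2 identifiers in each direction: those with the smallest p, separate ranges and a mean of at least 10 CPM. Within groups, replicate pairs differed by more than sampling noise (chi-square per degree of freedom 2.42 to 9.11 over genes with at least 20 counts in the pair), so each library counted as 1 sample.

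Alternatives were DESeq2 1.42.0, RLE factors, no filter, a filter of 5 CPM in 3 libraries, a block by replicate number, fits of the compared groups or of the stiff libraries, thinning to the smallest total and each compared library left out. Upper-quartile factors and unscaled totals were added after the data were seen. The total counts per library limit the precision, and counting floors cover counting error only.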

Additional observations from a re-analysis of the deposited data

Results flagged for a closer look

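The step from 12 to 24 h differed between stiff and soft in 526 of 11857 genes by the test of the difference itself (edgeR quasi-likelihood test, Benjamini-Hochberg adjusted p under 0.05), lower on stiff in 457 and higher in 69. The soft 12 h group holds 2 libraries, and the part of these in the result was not tested beyond leaving each out: 279 genes were called without soft 12 h replicate 3.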

How the results depend on the processing

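The 3630 calls, 1717 higher and 1913 lower, stayed within 1.5 times under every alternative run, from 2777 in total (without stiff 12 h replicate 1) to 3978 (replicate block), and the 4 identifiers kept direction and call in all. Thinned to equal depth, 3154 genes were called, 2957 of them among the 3630. Risen genes outnumbered fallen ones with no filter, upper-quartile factors and unscaled totals. Over 4-fold, the 56 risen and 4 fallen genes became 86 and 15 with DESeq2 and 32 and 2 when thinned, and 54 to 76 and 2 to 12 with 1 library left out.

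The 526 differences between the steps became 279 (without soft 12 h replicate 3) to 596 with 1 library left out, the 457 lower ones 248 to 486 and the 69 higher ones 17 to 110. The 69 became 190 with no filter, 151 with the replicate block, 44 when thinned and 39 with unscaled totals. The 71 genes fallen on stiff and risen on soft became 39 to 74 with 1 left out. The 1 gene risen on stiff and fallen on soft became 14 with no filter, 7 with the block, 4 when thinned, 3 with upper-quartile factors, 2 with a filter of 5 CPM or unscaled totals, and 0 to 2 with 1 library left out. The 1173 calls from 24 to 36 h became 600 to 1164 with 1 library left out. In each case the cause was not tested.

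Same-numbered stiff libraries of 24 and 12 h deviated together with correlations of 0.0322, 0.0491 and 0.0567. The main fit did not treat the numbers as pairs. Each of these 6 libraries correlated best with its own number, a hint that they are paired. The titles repeat the numbers across groups without saying what they mark, so whether the numbers pair the libraries is not settled. With the number as a block, 3978 genes were called in the step, against 3630 in the main fit. The steps then differed in 680 genes, against 526. Depth limits the scarce genes most.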
